A study of Homo sapiens with 2 samples.

Results

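The genes described here are 50 control genes of the cell division cycle, among them cyclins, cyclin-dependent kinases (CDKs), CDK inhibitors, the RB and E2F families and regulators of mitosis. They were chosen by name, as a fixed list, from 19974 protein-coding genes on chromosomes 1 to 22 and X, and all 50 were found in the annotation. The question was where KDM1B (also called LSD2), a flavin-dependent demethylase of lysine in histone H3, lay in and around them. The KDM1B ChIP library was precipitated with the anti-FLAG M2 antibody from crosslinked chromatin, and the input library was chromatin of the same kind without that enrichment. Both came from the cell line MDA-MB-231, which was established from a triple-negative breast cancer and here made KDM1B with a 3xFLAG tag from the stably integrated retroviral vector pOZ. The tagged protein was thus made from the vector, and cells without the tag were not analysed here. Each group held 1 library, so the values carry no error between replicates and ChIP against input could not be tested. The data are a list of peaks, each with its position on hg38 and a value of the authors, read here as the log2 ratio of ChIP over input. Read counts and sequencing depth are unknown.

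Cells enter a division cycle when cyclin D with CDK4 or CDK6, and then cyclin E with CDK2, phosphorylate the pocket proteins of the RB family. The pocket proteins then release E2F transcription factors, which switch on the genes of DNA synthesis. Genes needed for G2 and mitosis are switched on later by B-MYB and FOXM1 together with the MuvB complex, which holds LIN9 and LIN54. CDK1 with cyclin B drives entry into mitosis, the Aurora and Polo kinases act during it, and the spindle checkpoint holds back CDC20 until chromosomes are attached. The 50 genes were set in 3 groups by role: 18 genes of G1/S, 14 of E2F/RB and 18 of G2/M.

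KDM1B peaks were found at nearly all of these genes. A gene was counted when the midpoint of a peak lay in its RefSeq span or within 5 kb of it. By that count 47 of the 50 genes had a peak, 94.0%, while 67.5% of all protein-coding genes did. The share was 16 of 18 in G1/S, 14 of 14 in E2F/RB and 17 of 18 in G2/M. Without the flank it was 11 of 18 in G1/S, 14 of 14 in E2F/RB and 15 of 18 in G2/M. Of all protein-coding genes, 58.2% had a peak without the flank, and the G1/S count lay near that share. The 50 genes held 386 different peaks, with a median of 5.5 peaks a gene against 2 for all protein-coding genes. Gene length bears on such a count, and the 50 genes had a median length of 18.4 kb against 24.2 kb for all. Of genes under 10 kb, 10 of 12 had a peak, against 50.6% of all coding genes of that size. Of those of 10 to 50 kb, 27 of 28 did, against 71.8%, and of those over 50 kb 10 of 10, against 77.2%. A peak near a short gene may lie in its neighbour. Of the 84 peaks that lay in a flank and outside the gene, 33 had their midpoint in another protein-coding gene.

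The groups differed in how much of each gene lay under peaks, with G2/M genes covered most. The median percent of span covered was 47.8% in G2/M, 20.6% in E2F/RB and 6.82% in G1/S, against 1.52% over all protein-coding genes. Peaks covered 50% or more of the span in 13 of the 50 genes (26.0%), against 7.28% of all coding genes. These were 8 G2/M genes, 3 E2F/RB genes and 2 G1/S genes. The median gene length was 16.4 kb in G2/M, 46.8 kb in E2F/RB and 12.8 kb in G1/S, and a part of length in this order was not tested. Of genes under 10 kb, 3 of 12 were covered to 50% or more, against 8.27% of all coding genes of that size, and of those over 50 kb 1 of 10, against 2.75%. Within the class of 10 to 50 kb, 6 of 12 G2/M genes, 1 of 7 E2F/RB genes and 2 of 9 G1/S genes were covered to 50% or more. The share of all coding genes of that size was 10.1%. Median coverage in this class was 54.2% in G2/M, 39.4% in E2F/RB and 15.4% in G1/S, against 4.57% of all coding genes. Differences between the groups were not tested, since genes are not replicates of a condition.

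**Figure D1:**
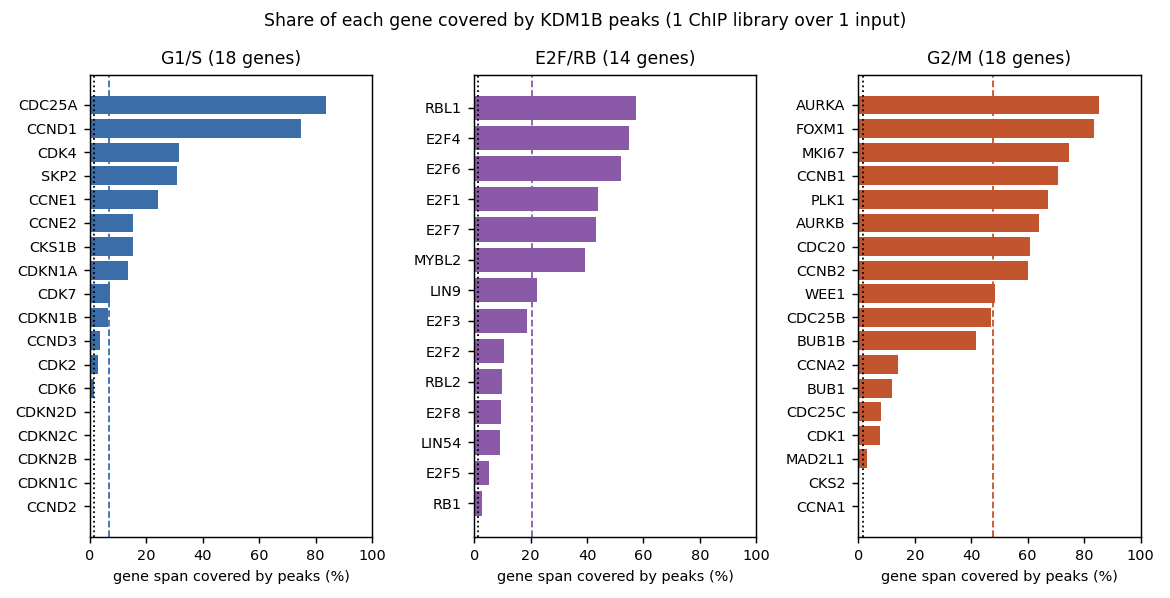
Percent of each gene's span covered by KDM1B peaks, 1 bar per gene, in the G1/S, E2F/RB and G2/M groups; the dashed line marks the median of the group and the dotted line the median of all protein-coding genes (1.52%). In G2/M 8 of 18 bars reach 50% or more, and in G1/S CDC25A (83.6%) and CCND1 (74.8%) stand above the others.

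Promoters were examined for the 39 genes with a RefSeq promoter window within 3 kb of the outer start of the gene, 300 bases from 250 before to 50 after the start. A peak overlapped this window in 26 of the 39 genes (66.7%), against 31.9% of 14867 coding gene promoters. The count was 9 of 11 in E2F/RB, 10 of 15 in G2/M and 7 of 13 in G1/S. The 8 sequences below are the 250 bases before the start in genes where a single peak covered the whole window, 5′ to 3′ on the strand of the gene, from RefSeq GRCh38.p14. They are examples of promoters that lay under a KDM1B peak, taken within each group in order of the log2 ratio of the covering peak, with 3 from E2F/RB, 2 from G1/S and 3 from G2/M. E2F3 (chr6:20401629-20401878, + strand), LIN9 (chr1:226309768-226310017, - strand) and RBL1 (chr20:37095998-37096247, - strand) are from E2F/RB. CDKN1B (chr12:12717118-12717367, + strand) and CCNE1 (chr19:29811741-29811990, + strand) are from G1/S. MAD2L1 (chr4:120066849-120067098, - strand), CCNA2 (chr4:121823884-121824133, - strand) and CDC25B (chr20:3786701-3786950, + strand) are from G2/M. Capitals mark E2F forms (TTCCCGC or TTGGCGC), CHR forms (TTTGAA or TTCGAA) and the CCAAT box (CCAAT), found on either strand.
E2F3: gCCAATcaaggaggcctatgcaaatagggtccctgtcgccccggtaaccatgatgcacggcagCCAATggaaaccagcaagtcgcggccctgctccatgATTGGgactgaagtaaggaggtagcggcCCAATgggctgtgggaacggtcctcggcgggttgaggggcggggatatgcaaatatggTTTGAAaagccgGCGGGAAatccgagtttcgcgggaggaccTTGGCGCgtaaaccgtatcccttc
LIN9: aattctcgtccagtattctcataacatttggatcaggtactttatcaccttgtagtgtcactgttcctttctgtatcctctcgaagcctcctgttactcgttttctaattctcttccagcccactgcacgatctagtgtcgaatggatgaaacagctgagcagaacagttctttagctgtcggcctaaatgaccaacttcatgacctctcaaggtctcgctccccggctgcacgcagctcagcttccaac
RBL1: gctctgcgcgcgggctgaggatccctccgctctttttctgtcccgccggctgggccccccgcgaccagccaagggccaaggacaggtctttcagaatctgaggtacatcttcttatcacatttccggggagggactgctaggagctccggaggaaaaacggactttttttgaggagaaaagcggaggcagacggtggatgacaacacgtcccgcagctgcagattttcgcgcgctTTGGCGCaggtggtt
CDKN1B: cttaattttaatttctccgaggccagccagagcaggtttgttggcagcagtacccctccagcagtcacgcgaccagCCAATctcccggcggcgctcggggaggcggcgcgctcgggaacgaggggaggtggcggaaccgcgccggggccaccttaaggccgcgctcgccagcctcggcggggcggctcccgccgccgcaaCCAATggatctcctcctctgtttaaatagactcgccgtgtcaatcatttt
CCNE1: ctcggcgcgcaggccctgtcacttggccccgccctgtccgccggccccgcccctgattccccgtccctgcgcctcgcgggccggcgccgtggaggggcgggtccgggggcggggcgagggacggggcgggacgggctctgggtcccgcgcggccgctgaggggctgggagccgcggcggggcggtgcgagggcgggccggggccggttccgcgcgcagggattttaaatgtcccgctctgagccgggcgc
MAD2L1: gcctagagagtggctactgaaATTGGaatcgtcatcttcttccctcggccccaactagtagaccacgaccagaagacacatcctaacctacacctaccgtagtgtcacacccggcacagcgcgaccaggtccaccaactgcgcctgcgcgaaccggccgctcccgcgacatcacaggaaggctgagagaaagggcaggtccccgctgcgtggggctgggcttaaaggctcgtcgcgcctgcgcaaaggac
CCNA2: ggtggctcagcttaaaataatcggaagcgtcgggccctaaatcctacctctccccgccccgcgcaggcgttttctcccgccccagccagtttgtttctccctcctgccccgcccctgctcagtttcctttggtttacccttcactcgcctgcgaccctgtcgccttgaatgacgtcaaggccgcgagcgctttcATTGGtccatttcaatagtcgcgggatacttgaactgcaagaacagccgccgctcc
CDC25B: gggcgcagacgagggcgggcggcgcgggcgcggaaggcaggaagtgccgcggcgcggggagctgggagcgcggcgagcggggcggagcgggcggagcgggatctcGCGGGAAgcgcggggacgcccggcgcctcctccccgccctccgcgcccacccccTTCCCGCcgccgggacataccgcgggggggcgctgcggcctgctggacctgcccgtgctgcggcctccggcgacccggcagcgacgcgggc

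The log2 ratios of the covering peaks were 3.51 at E2F3, 3.10 at MAD2L1, 2.99 at CCNA2, 2.88 at CDC25B, 2.68 at CDKN1B, 2.64 at CCNE1, 2.62 at LIN9 and 2.59 at RBL1. The printed stretch of E2F3 held 7 marked matches of all 3 kinds: CCAAT boxes beginning 249, 187, 151 and 123 bases before the start, a CHR form at 65, and E2F forms at 53 and 24. RBL1 held an E2F form 15 bases before the start, and CDC25B held E2F forms at 145 and 91. CDKN1B had CCAAT boxes at 174 and 50, MAD2L1 had one at 229 and CCNA2 had one at 56. No marked letters were found in the printed stretches of LIN9 and CCNE1.

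The promoter letters differed between the groups. E2F forms are the letters that E2F factors read, the CHR (cell cycle genes homology region) is read by LIN54 of MuvB, and CCAAT boxes are read by NF-Y. Over the 300 bases, E2F forms stood in 6 of 11 E2F/RB promoters, 3 of 15 of G2/M and 1 of 13 of G1/S, against 12.4% of all promoters. CHR forms stood in 9 of 15 G2/M promoters, 3 of 11 of E2F/RB and 1 of 13 of G1/S, against 13.3%. CCAAT boxes stood in 11 of 15 G2/M promoters, 3 of 11 of E2F/RB and 4 of 13 of G1/S, against 36.5%. The GC box (GGGCGG on either strand, which can overlap the E2F form) stood in 31 of the 39 promoters, against 59.1%. All 10 promoters of the 39 that held an E2F form were overlapped by a peak, while 44.9% of all promoters with that form were. With or without the form, 26 of the 39 were overlapped. In E2F/RB, which held 6 of these 10 promoters, 9 of 11 were. Of the 9 G2/M promoters with a CHR form, 5 were overlapped, namely those of CCNB2, CDC20, CDK1, MAD2L1 and PLK1. Those of BUB1, BUB1B, CKS2 and MKI67 were not. Of all promoters with a CHR form 22.4% were overlapped, and of all G2/M promoters, with or without it, 10 of 15 were. A match is a run of letters and not a measured binding site.

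**Figure D2:**
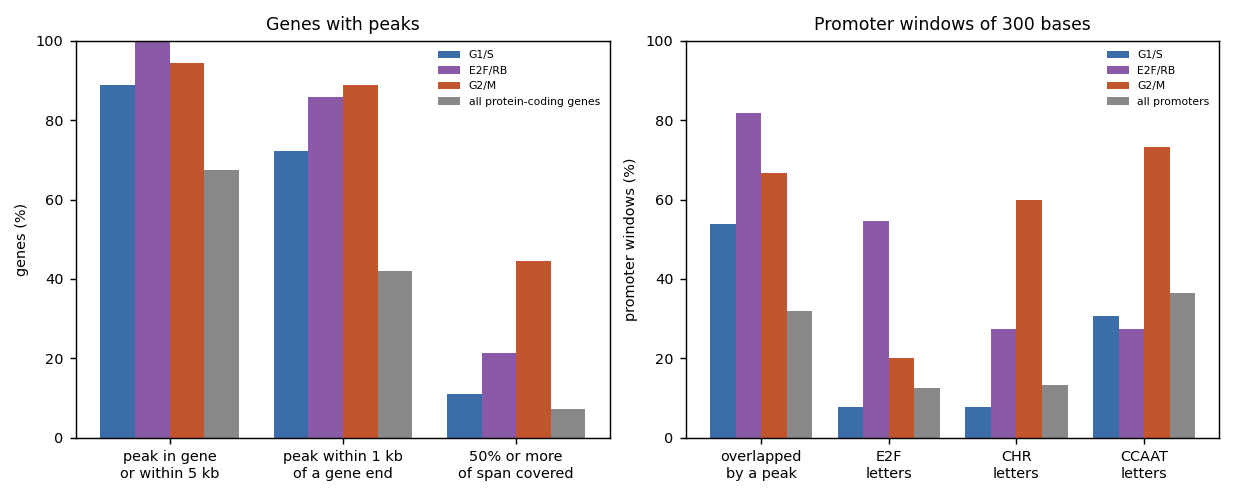
Left, percent of genes with a peak in the gene or within 5 kb, with a peak within 1 kb of a gene end, and with 50% or more of the span covered. Right, percent of promoter windows overlapped by a peak and holding E2F, CHR or CCAAT letters. Bars are the G1/S, E2F/RB and G2/M genes and, last, all protein-coding genes (left) or all 14867 promoters (right). E2F letters are most frequent in E2F/RB promoters and CHR letters in G2/M promoters.

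Among the G1/S genes the cyclins differed widely. CCND1, cyclin D1 (chromosome 11, 69641156 to 69654474), had 6 peaks with log2 ratios from 1.93 to 3.40 and a median of 2.69. One of them, 8.06 kb wide with a log2 ratio of 3.40, ran from 69645016 to 69653079 and made up most of the 74.8% of the gene that was covered. CCND2 had 1 peak, at 3.03, outside the gene by 1.54 kb, and none of its span was covered. CCND3 had 11 peaks from 2.11 to 5.40, of which 5 lay in its 115 kb span and covered 3.59% of it. In 4 of its 6 flank peaks the midpoint lay in another gene, BYSL or TAF8. The cyclin E genes, partners of CDK2, stood between these. CCNE1 had 4 peaks with log2 ratios of 2.64, 3.86, 2.83 and 3.44 and 23.9% of its span covered. CCNE2 had 5 peaks, of 3.30, 2.94, 2.64, 4.34 and 2.95, and 15.4% covered.

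The 4 CDK genes of interphase had from 1 to 5 peaks each, with a median of 3, against 2 for all protein-coding genes. Their median coverage was 5.09%, against 1.52%. CDK6, a partner of cyclin D, had 4 peaks in 232 kb, of 2.84, 4.34, 3.05 and 2.71, which covered 1.37% of it. CDK4, the other partner of cyclin D, had 2 peaks, of 2.84 and 3.68, in a gene of 4.58 kb, and 31.4% covered. CDK2 had a single peak, of 2.75, centred 0.11 kb outside the gene. CDK7, which activates other CDKs, had 5 peaks with a highest value of 4.77. CDC25A, the phosphatase that activates CDK2, had more, with 13 peaks from 2.22 to 3.47 (median 2.83) over 31.3 kb. It had the highest coverage of the group, 83.6%. Its widest peak measured 6.86 kb. SKP2, the substrate receptor that sends the inhibitor p27 for degradation, had 12 peaks from 2.003 to 3.36 and 30.7% covered, and CKS1B, its cofactor, had 3 peaks, of 1.75, 3.59 and 3.07. The strongest peak of CKS1B lay within 1 kb of a gene end.

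The 6 CDK inhibitor genes together held 8 peaks, with a median of 1 peak a gene and a median coverage of 0%. These are also the medians of all protein-coding genes under 10 kb, and the inhibitor genes had a median length of 5.71 kb. CDKN1A (10.87 kb) and CDKN2C (13.89 kb) fell in the class of 10 to 50 kb, whose medians were 2 peaks and 4.57%. CDKN1A, the p53 target p21, had 1 peak, at 2.86, inside the gene and over 13.3% of it. CDKN1B, which encodes p27, had 2, of 2.77 and 2.68, both before its start and with midpoints in GPR19. CDKN2C (p18) had 1, of 2.51, centred 2.84 kb beyond the gene. CDKN2D (p19) had 4 in its flanks, of 3.62, 2.38, 2.42 and 2.44, the first 2 with midpoints in KRI1, and no covered span. CDKN1C (p57) and CDKN2B (p15) had none. The nearest midpoint was 39.6 kb from CDKN1C, with 17 midpoints within 100 kb of that gene. Around CDKN2B no peak was listed from 20713331 to 25678400 on chromosome 9, a stretch of 4.97 Mb with 24 protein-coding genes, 16 of them type I interferon genes. Of the 434 peak-free stretches of 1 Mb or more, 14 were this long or longer and 8 held as many coding genes or more, this one included in both. A deletion of CDKN2A, the neighbour of CDKN2B, is known in this cell line. DNA copy number was not analysed here, so absence of KDM1B from CDKN2B and absence of the locus cannot be told apart.

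The E2F/RB genes, with the highest median length of the 3 groups, had a median of 11 peaks a gene, against 7 in G2/M and 3.5 in G1/S. Per 10 kb of gene and flanks the medians were 2.10 in E2F/RB, 2.19 in G2/M and 1.14 in G1/S, against 0.382 for all coding genes. With MYBL2, LIN9 and LIN54 counted in G2/M, the E2F/RB median was 6 peaks, below the 7 of G2/M. RBL1, which encodes the pocket protein p107 (chromosome 20, 36996349 to 37095997), had 40, the highest number of the 50 genes, from 1.77 to 3.28 with a median of 2.50. They covered 57.5% of its 99.6 kb, and the widest measured 6.52 kb. Its relatives, both over 50 kb, were less covered, though the median of all coding genes of that size was 1.11%. RB1, the retinoblastoma gene, had 6 peaks from 2.68 to 4.86 with a median of 3.17, over 2.61% of 178 kb. RBL2, which encodes p130, had 11 from 2.37 to 5.65 with a median of 2.74, over 9.93% of 57.2 kb. The value of 5.65 belonged to a peak centred 1.66 kb before the start of RBL2 and was the highest of all 386 peaks.

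Each of the 8 E2F genes had a peak in the gene or within 5 kb, against 67.5% of all protein-coding genes. Each also had one within 1 kb of a gene end, against 41.9%. E2F3, an activator E2F, had 22 peaks from 2.13 to 4.34 (median 2.90) over 91.8 kb with 18.8% covered. E2F1, another activator, had 6 from 2.08 to 3.00 (median 2.43) and 43.8% covered. E2F2, the remaining activator, had 5 peaks, of 2.67, 5.40, 3.60, 2.90 and 2.37, and 10.7% covered. Among the repressor E2Fs, E2F4 had 5 peaks, of 2.35, 2.46, 4.72, 2.88 and 2.78, and 54.8% covered. E2F6 had 14 from 1.72 to 3.77 and 52.2% covered, and E2F7 had 17 from 1.98 to 3.68 and 43.2%. E2F5 with 3 peaks, of 2.76, 3.78 and 3.89, and E2F8 with 2, of 2.77 and 4.12, were the least covered of the family at 5.12% and 9.65%. Activator and repressor members both stood on both sides of the group median. MYBL2, which encodes B-MYB, had 21 peaks from 2.14 to 3.72 and 39.4% covered. LIN9 had 18 from 1.99 to 3.81 and 22.4% covered, and LIN54 had 11 from 1.76 to 3.26 and 9.31%.

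**Figure D3:**
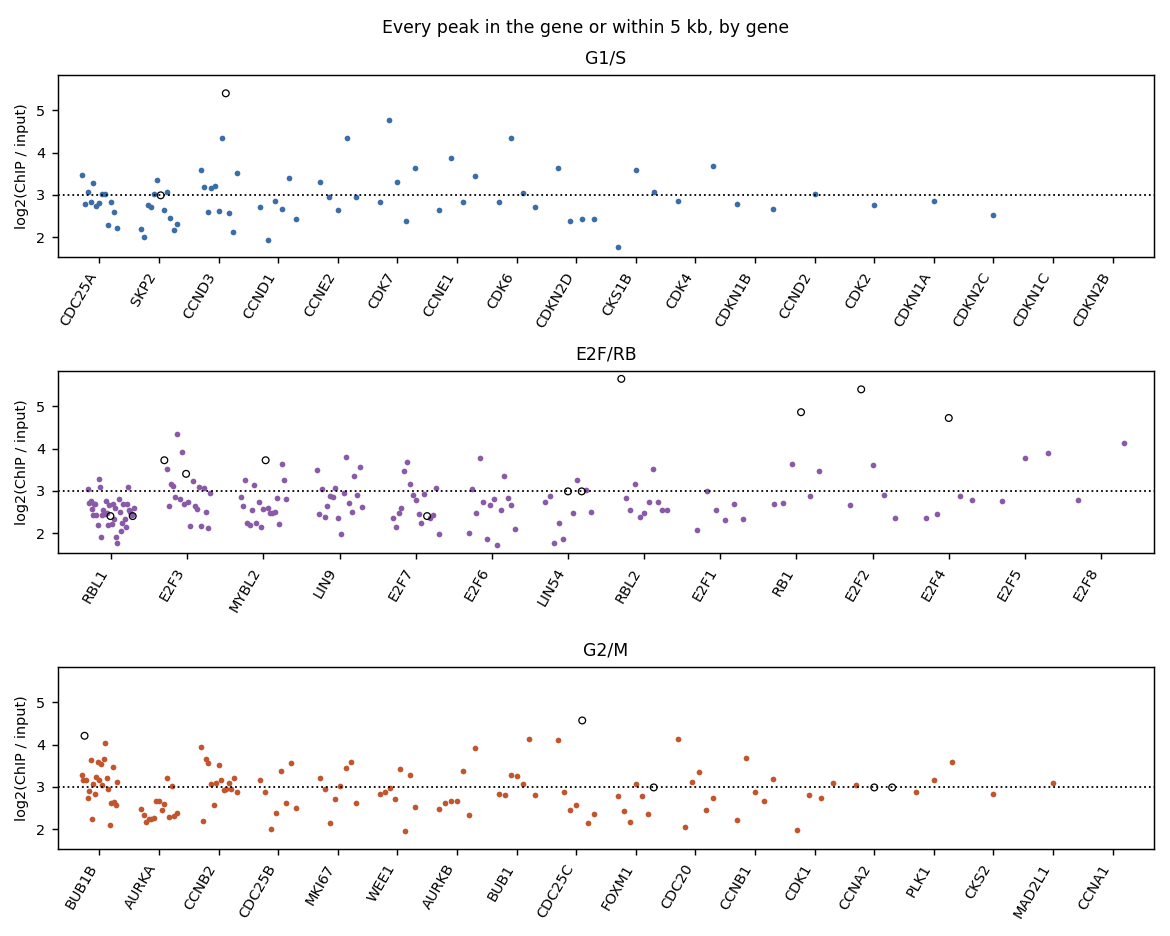
The authors' log2 ratio of ChIP over input (vertical axis) for every peak in the gene or within 5 kb, by gene, with genes ordered from most to fewest peaks in each group and peaks in genome order within a gene. The dotted line is the median of all listed peaks (2.99), and open circles are peaks whose linear ratio is a whole multiple of 2.64. RBL1 has the most peaks (40), nearly all under the line, and the highest value (5.65) belongs to RBL2.

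G2/M genes were covered most. AURKA, the centrosomal Aurora kinase (chromosome 20, 56369390 to 56392215), had the highest coverage of the 50 genes, 85.2%, from 15 peaks of 2.16 to 3.21 with a median of 2.39. All 5 of its flank peaks had midpoints in CSTF1 or FAM210B. FOXM1 (chromosome 12, 2857680 to 2877174) was next within G2/M with 83.6%, from 7 peaks of 2.18 to 3.07. One peak of 12.4 kb, with a log2 ratio of 3.07, ran from 2861877 to 2874309 and was the widest of the 386 peaks. MKI67, which encodes the proliferation marker Ki-67, had 8 peaks of 2.15 to 3.60 and 74.6% covered, with 2 neighbouring peaks of 6.79 and 6.26 kb. CCNB1, cyclin B1, had 5 peaks, of 2.21, 3.69, 2.89, 2.68 and 3.18, and 70.6% covered. PLK1, the Polo-like kinase, had 3, of 2.87, 3.17 and 3.59, and 67.0% covered. AURKB, the Aurora kinase of the chromosomal passenger complex, had 7 from 2.33 to 3.93 and 64.0%. CDC20, the activator of the anaphase promoting complex, had 6 from 2.06 to 4.14 and 60.9%, and CCNB2, cyclin B2, had 15 from 2.19 to 3.94 and 59.97%. Peaks of 5 kb or wider were found at 6 of the 50 genes (CCND1, CDC25A, RBL1, FOXM1, MKI67 and PLK1), against 4.19% of all coding genes.

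Other G2/M genes had many peaks with less of the span covered, or few peaks. BUB1B, a spindle checkpoint kinase-like protein, had 25 peaks from 2.10 to 4.21 with a median of 3.15 and 41.6% covered. The readthrough gene BUB1B-PAK6 held the midpoint of 1 of its 23 peaks in the span and of both in its flank. WEE1, the kinase that restrains CDK1, had 8 from 1.96 to 3.42 and 48.4%, and CDC25B, a phosphatase that releases it, had 8 from 2.001 to 3.56 and 47.2%. CDC25C, of the same phosphatase family, had 7 from 2.13 to 4.57 and 8.17%. BUB1, a checkpoint kinase, had 7 from 2.80 to 4.12 and 11.95%. CDK1 itself had 4 peaks, of 1.99, 2.80, 2.74 and 3.09, over 7.82% of the gene, and so differed in coverage from its partners CCNB1 and CCNB2. CCNA2, cyclin A2, had 3 peaks, of 3.04, 2.99 and 2.99, and 14.02% covered. MAD2L1, which encodes the checkpoint protein MAD2, had 1 peak, of 3.10, at its promoter, and CKS2, a CDK1 subunit, had 1, of 2.84, in the neighbour SECISBP2. CCNA1, the cyclin A known from germ cells, had no peak, the nearest midpoint being 84.9 kb away. So 7 of the 47 genes with a peak had it in the flank only, and 40 kept one without the flank. Of all coding genes, 67.5% had a peak with the flank and 58.2% without it, so flank-only genes were found there too. The members nearest the limit of 5 kb were CDKN2C (2.84 kb) inside it and CDKN1C (39.6 kb) outside it.

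Peaks within 1 kb of a gene end were found at 41 of the 50 genes (82.0%), against 41.9% of all protein-coding genes. In G2/M 16 of 18 genes had one, in E2F/RB 12 of 14 and in G1/S 13 of 18. In G2/M the highest log2 ratio at a gene end was 4.10 at CDC25C, followed by PLK1 (3.59), CDC20 (3.35), CCNB2 (3.21), MKI67 (3.21), MAD2L1 (3.10), AURKA (3.01), CCNA2 (2.99), WEE1 (2.89), CDC25B (2.88), BUB1 (2.82), FOXM1 (2.78), CDK1 (2.74), AURKB (2.65), BUB1B (2.58) and CCNB1 (2.21). In E2F/RB it was 4.12 at E2F8, followed by E2F6 (3.77), E2F3 (3.51), E2F4 (2.88), E2F5 (2.76), RB1 (2.68), LIN9 (2.62), RBL1 (2.59), LIN54 (2.51), E2F7 (2.47), E2F2 (2.37) and E2F1 (2.31). In G1/S it was 3.86 at CCNE1, followed by CKS1B (3.59), CCND3 (3.17), CCNE2 (2.95), CCND1 (2.86), CDK4 (2.84), CDK2 (2.75), CDK6 (2.71), CDKN1B (2.68), CDC25A (2.60), CDKN2D (2.42), CDK7 (2.37) and SKP2 (2.19). Most of these values lay below the median of the whole list, 2.99. When only peaks at or above that median were kept, 14 of the 50 genes had a gene-end peak, against 16.5% of all coding genes.

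Strand was known for 40 of the genes. In 30 of them a peak midpoint lay within 1 kb of the start, against 36.5% of 15812 coding genes with strand. In 18 it lay within 1 kb of the other end, against 17.4%. Both were found in 15 of the 40 genes, against 1644 of the 15812. The start carried the weaker peaks. In the 40 genes, 33 start peaks had a median log2 ratio of 2.51 (quartiles 2.19 and 2.68), 243 peaks further inside had 2.83 (2.50 and 3.16) and 20 at the other end had 2.86 (2.50 and 3.25). Over all coding genes the medians were 2.60 at starts, 2.99 inside and 2.94 at the other end. In G2/M the start median was 2.48 and the inside median 3.08, and in E2F/RB they were 2.44 and 2.68. Only 4 of the 33 start peaks reached 2.99, and 95 of the 243 inside did. Over all coding genes 1600 of 6165 start peaks and 25257 of 49173 inside reached it.

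In G2/M the mean coverage was higher in the later parts of the gene, but single genes went both ways. With each span cut into 5 equal parts from start to end, the mean percent covered in the 15 G2/M genes was 26.0, 21.6, 43.9, 43.0 and 42.4%. In the 12 E2F/RB genes it was 28.1, 23.3, 33.9, 29.5 and 37.1%, and in the 13 G1/S genes 17.1, 23.2, 10.96, 9.54 and 22.6%. Over all coding genes with strand the parts stood at 11.7, 10.7, 12.2, 13.1 and 13.0%. In PLK1 10.5% of the first part was covered and 99.97% of the last. In MKI67 the first part was covered to 15.98% and the fourth to 99.7%. AURKB, CCNB2, CDC20 and CDC25B also had more of the last part covered than of the first. BUB1, BUB1B, CCNA2, CCNB1, CDC25C, CDK1 and MAD2L1 had less, as in BUB1B with 53.8% of the first part and 32.4% of the last. CCNA1 and CKS2 had no covered span. CDC25A, of G1/S, was covered along its whole length, from 70.8% in the first part to 99.3% in the third.

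**Figure D4:**
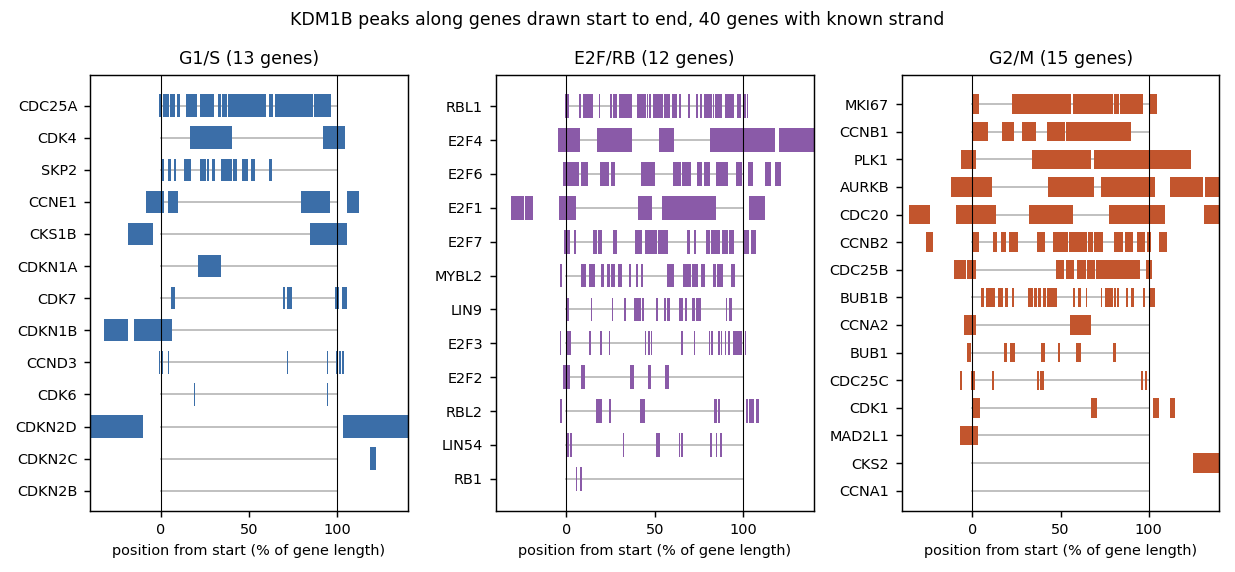
KDM1B peaks (filled boxes) along the 40 genes with known strand, drawn from the start (0) to the end (100) of each gene as percent of gene length, with flanks out to 40% of the length; genes run from most covered (top) to least covered (bottom) in each group. In MKI67 and PLK1 the later parts of the gene are filled, and the rows of CDKN2B and CCNA1 are empty.

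The highest ratios among the 386 peaks belonged to narrow peaks. After RBL2 (5.65, chromosome 16, 53432512 to 53433111) came CCND3 (5.40, chromosome 6, 42044762 to 42045262) and E2F2 (5.40, chromosome 1, 23518738 to 23519238), then RB1 (4.86), CDK7 (4.77), E2F4 (4.72) and CDC25C (4.57). These were between 500 and 645 bp wide, while the median width was 920.5 bp over the 386 peaks and 804 bp over the whole list. Of these 7 peaks, those of RBL2, CCND3, E2F2, RB1, E2F4 and CDC25C had linear ratios at whole multiples of 2.64, a step common to the whole list, and the input counts behind them are unknown. Such multiples made up 19 of the 386 peaks (4.92%), against 12.4% of all listed peaks. In relation to the whole list the 386 peaks were of modest height, with a median log2 ratio of 2.78 against 2.99.

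The same measures were taken in 51 other cell cycle genes. A peak was found in the gene or within 5 kb at 50 of them (98.0%), and at a gene end in 35 (68.6%). Coverage reached 50% or more in 10 (19.6%). These shares were 94.0, 82.0 and 26.0% in the 50 genes above, and 67.5, 41.9 and 7.28% in all coding genes. The median coverage of the 51 genes was 20.1%, against 15.3% in the 50 genes above and 1.52% in all coding genes. The 15 subunit and activator genes of the anaphase promoting complex, which marks mitotic proteins for degradation, all had a peak, with 7 at a gene end (46.7%), which is near the 41.9% of all coding genes. The 10 mitotic regulators all had one, with 9 at a gene end, and 4 of them were covered to 50% or more. Median coverage was 23.9% in the mitotic regulators and 30.1% in the anaphase promoting complex genes, against 47.8% in the G2/M group. CDK8 was the single gene of the 51 without a peak. MAD1L1, a spindle checkpoint gene of 417 kb, had the most peaks (80) and the highest value (6.45), ANAPC1, the largest subunit gene of that complex, had 42, and ESPL1, which encodes separase, had the next highest value (6.10).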

How the data were processed

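Per the submitters' processing notes, Trim Galore 0.4.5 and Bowtie2 2.2.9 were used, with the hg38 genome. The authors deposited 78504 peaks on chromosomes 1 to 22 and X, each with a value read as the log2 ratio of ChIP over input. That unit was inferred from the values, since the list has no header. Read as log2, 12.4% of the values gave linear ratios at whole multiples of a common step of 2.64. Whole multiples were called within 0.0001. For the peak caller, its thresholds and the depth, nothing is stated in the labels. Peak positions are printed as deposited.

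Gene spans are those of RefSeq on GRCh38.p14, and strand and promoter letters from a RefSeq promoter table of the same build. All 50 genes matched a span, 40 had a strand and 39 a promoter window. For the other 10 no start was assigned. Peaks were placed by midpoint. Percent covered is the share of the span under peaks, and a gene-end peak has its midpoint within 1 kb of either end. Counts over genes were made with Python 3.11.15, pandas 2.3.3 and numpy 2.4.6, after a check on artificial intervals with known answers. No test was run, since each group held 1 library.

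The genes, their groups and the other lists were chosen with earlier results of these data known. The promoters printed, and the genes described in full, followed a rule on peak number, height and coverage. The width, place and stretch comparisons were chosen after the values were seen.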

Additional observations from a re-analysis of the deposited data

How the results depend on the processing

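Counts and medians were recomputed with the stronger part of the list, any overlap of 1 bp, peaks within 1 kb joined, flanks of 0 and 10 kb, gene-end distances of 500 bp and 2 kb, MYBL2, LIN9 and LIN54 moved to G2/M, and, chosen after seeing the data, without whole multiples. Of 109 values 86 stayed within 1.5 times and 23 did not, and 16 of these came from the stronger part of the list. There the genes with a gene-end peak numbered 14, with 8 in G2/M, 3 in E2F/RB and 3 in G1/S, and those with a start peak 4. Of all coding genes, 16.5% had a gene-end peak there. Median coverage was 6.26% over all 50 genes, with 22.8% in G2/M, 6.25% in E2F/RB and 1.26% in G1/S. Over all coding genes it was 0%. Genes covered to 50% or more numbered 3 in G2/M, 0 in E2F/RB and 1 in G1/S. For start peaks and for coverage of 50% or more, the share of all coding genes was not taken in this setting. Median peaks were 2 over all genes, with 2 in G2/M, 3 in E2F/RB and 1 in G1/S. With peaks joined, median peaks were 3 over all genes, with 3 in G2/M, 6 in E2F/RB and 2 in G1/S. With flanks of 0 kb they were 4.5 in G2/M and 1.5 in G1/S. With the 3 genes moved, the E2F/RB median was 6, below the 7 of G2/M. Fewer peaks or fewer genes were counted in these settings, but what moved the values was not tested. No paired analysis was possible because each group held 1 library. Depth limits single ratios, since their read counts are unknown.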
